A study of Mus musculus with 12 samples.

Results

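Genes were sought whose level in cells that carry both reporters lay outside the levels of both single-reporter fractions, so that the double-reporter profile could not be written as a point between them. All 12 RNA-seq libraries of the series entered, 4 for each of 3 sorted fractions called eGFP, tdTomato and eGFP/tdTomato. Every library came from the spinal cord of postnatal day 7 mice on a C57BL/6 background with the genotype Aldh1L1-GFP/Olig2-tdTomato, with tissue of the brachial and thoracic levels dissociated with papain. All fractions therefore carried both transgenes and differed in which fluorescence the sorted cells showed. The contrast set the eGFP/tdTomato group mean against the average of the other 2 group means on the log2 scale, each with equal weight. It tested 29361 of 53465 genes, of which 115 lay above both single-reporter fractions and 77 lay below both.

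Aldh1l1, which drives the eGFP transgene, encodes a folate enzyme widely used to mark astrocytes. Olig2, whose locus or promoter the tdTomato reporter is named for, is a basic helix-loop-helix factor of ventral spinal progenitors and of the oligodendrocyte lineage, and part of the spinal astrocytes also express it. Astrocytes take up transmitters, buffer ions and secrete matrix and growth factors, and they differ between dorsal and ventral cord and between grey and white matter. The labels name the replicates as biological but do not say how many animals a library holds, how gates were set or how pure a fraction was, so every p-value refers to variation among these libraries and not to a known number of animals. In bulk RNA, fewer cells of a type and less RNA per cell cannot be told apart.

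Levels below are in CPM, that is, counts relative to library size after scaling by the trimmed mean of M values (TMM). The reporter genes themselves followed the labels. Aldh1l1 stood at 531, 639, 912 and 807 CPM in the eGFP/tdTomato libraries (replicates 1, 2, 3 and 5, in this order throughout), at 209, 323, 693 and 399 CPM in eGFP and at 2.27 to 6.24 CPM in tdTomato. Olig2 stood at 41.5, 57.6, 106 and 92.8 CPM in eGFP/tdTomato, at 1.73 to 8.75 CPM in eGFP and at 175 to 361 CPM in tdTomato. Olig2 in the double-reporter fraction thus lay between the other fractions, 12.8-fold above eGFP (adjusted p = 0.000189 in edgeR's quasi-likelihood test with Benjamini-Hochberg adjustment) and 3.46-fold below tdTomato (adjusted p = 0.00251). Aldh1l1 there was 1.78-fold above eGFP, a difference that did not pass the test (adjusted p = 0.404). Counts in genes ranged from 12564767 to 36505583 per library. The library eGFP replicate 1 stood apart, with the lowest count and 57.1% of its reads outside annotated genes against 21.2 to 42.5% in the other 11.

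In the contrast against the average, 2708 genes were called higher in eGFP/tdTomato (9.22% of those tested) and 1525 lower (5.19%) at an adjusted p under 0.05. Higher genes made up 64.0% of the calls. That split followed the scaling and the gene filter: it was 52.3% with upper quartile factors, 50.9% with DESeq2, 50.6% when restricted to protein-coding genes averaging 1 CPM or more, 49.0% over genes with at least 1 CPM in 4 libraries and 45.0% without eGFP replicate 1. The median over all genes tested was 0.26 on the log2 scale with TMM factors and 0.14 with upper quartile factors. On a log scale the average of 2 unequal groups is their geometric mean, which lies under their arithmetic mean. A gene can therefore be called in this contrast while its double-reporter mean lies between the other means, and this held for 770 of the genes called higher (28.4%) and 685 of those called lower (44.9%). Most calls also rested on 1 side: 2560 of the higher calls and 1360 of the lower calls were called in the same direction against tdTomato but not against eGFP. Taken alone, the contrast against eGFP called 239 genes higher (0.814%) and 491 lower (1.67%), that against tdTomato 4935 higher (16.8%) and 3628 lower (12.4%), and eGFP against tdTomato 10347 in either direction (35.2%).

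A gene was counted as above both when it was called higher in the average contrast and in each pairwise contrast of the same fit, and when each of the 4 eGFP/tdTomato libraries exceeded each of the other 8. The mirror rule gave the genes below both. By it 115 genes (0.392% of those tested) were above both and 77 (0.262%) below both, which is 4.25% of the higher calls and 5.05% of the lower calls. Without the pairwise tests, 491 genes (1.67%) had all 4 libraries above the other 8 and 170 (0.579%) had all 4 below them. Conversely, 4 genes called higher and 3 called lower in all contrasts had overlapping libraries. Just inside the limit, the lowest eGFP/tdTomato library for Ttpa was 1.02 times the highest other library, at 124 against 122 CPM. Just outside it, the same ratio for Slit1 was 0.995, at 36.7 against 36.9 CPM. On the lower side, Hrasls just met the limit (highest eGFP/tdTomato library 4.04 CPM, lowest other library 4.07 CPM) and Pnck just missed it (9.56 against 9.14 CPM).

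**Figure D1:**
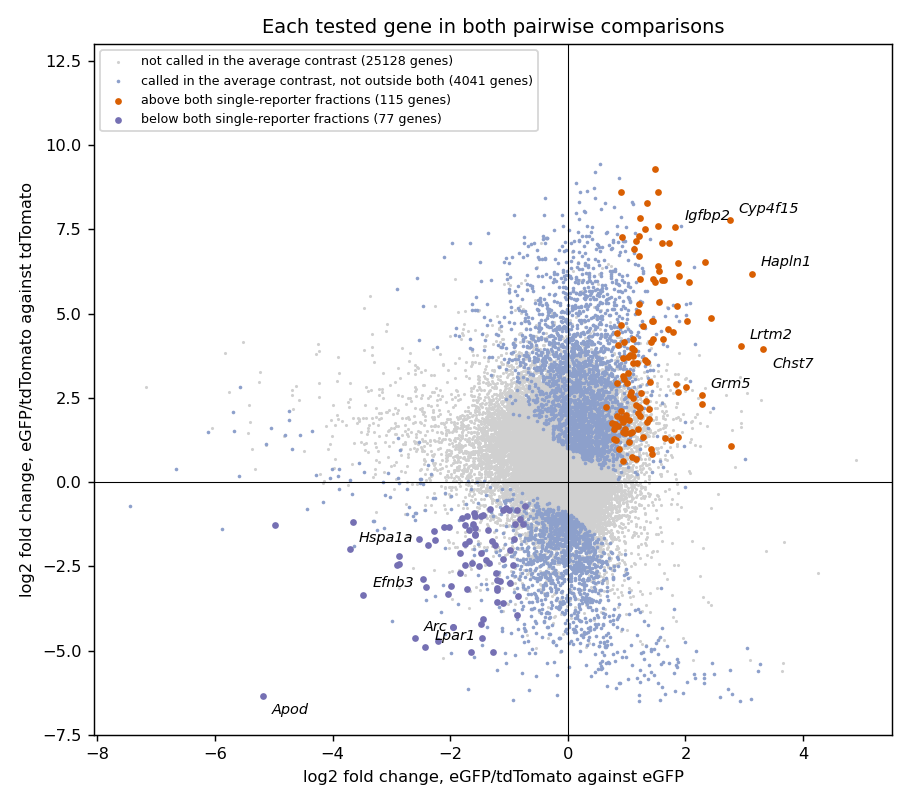
Each point is a tested gene, with the log2 fold change of eGFP/tdTomato against eGFP on the horizontal axis and against tdTomato on the vertical axis. The 115 genes above both fractions sit in the upper right and the 77 below both in the lower left, while most other called genes lie near the vertical line at 0, that is, close to eGFP and far from tdTomato.

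The 115 genes above both and the 77 below both differed in make-up. Of the 115, 88 were also called higher in eGFP than in tdTomato (35.2% of all tested genes were called between these fractions, in either direction), 2 the other way and 25 neither way. Of the 77, 4 were called higher in eGFP, 33 higher in tdTomato and 40 neither way. The weaker of the pairwise changes was the one against eGFP for 106 of the 115 and for 46 of the 77. It reached 2-fold in 83 and 59 genes, and 4-fold in 11 genes of each set. Its median was 1.21 on the log2 scale above both and -1.34 below both. Protein-coding genes made up 110 of the 115 and 72 of the 77.

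The sets rested unevenly on single libraries. When each of the 12 libraries was left out in turn, 28 of the 115 genes above both and 37 of the 77 below both kept their calls in all 12 fits. Leaving out eGFP replicate 1, 2, 3 or 5 put 54, 65, 245 or 30 genes above both, and leaving out eGFP/tdTomato replicate 1, 3 or 5 put 59, 34 or 51 there. Leaving out eGFP replicate 1 or 2 put 141 or 50 genes below both, and leaving out eGFP/tdTomato replicate 1 or 5 put 49 there in each case. The lower calls of the average contrast numbered 2850 without eGFP replicate 1, and the higher calls 1677 without eGFP/tdTomato replicate 3. The 30 genes described first below, 15 in each direction, were limited to named protein-coding genes that kept their calls in all 12 fits and were ordered by the weaker pairwise change. They show the most stable part of each set, and that stability was required and is not a result. All 30 also kept both pairwise calls under DESeq2, limma-voom, the other scalings and the other gene filters.

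The sequences before the start sites of 3 of these genes are shown because 2 of them are the leading genes above both and the third leads the genes below both. Each is the 250 bases before the start in RefSeq on GRCm38.p6, written 5′ to 3′ on the gene's strand: Chst7 at chrX:20059320-20059569 on the plus strand, Hapln1 at chr13:89540386-89540635 on the plus strand and Apod at chr16:31314809-31315058 on the minus strand. The RefSeq starts differ from those of GENCODE M21 for the genes on the plus strand. By GENCODE the whole Hapln1 window lies inside the gene, which starts at chr13:89539796. The Chst7 window ends just inside its gene, which starts at chrX:20059560. Capitals mark ACAAAG, a SOX-type motif.
Chst7: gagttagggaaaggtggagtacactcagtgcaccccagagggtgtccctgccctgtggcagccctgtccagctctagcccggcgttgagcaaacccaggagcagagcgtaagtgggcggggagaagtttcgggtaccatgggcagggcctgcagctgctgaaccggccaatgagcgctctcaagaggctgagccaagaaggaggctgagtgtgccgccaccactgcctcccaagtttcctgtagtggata
Hapln1: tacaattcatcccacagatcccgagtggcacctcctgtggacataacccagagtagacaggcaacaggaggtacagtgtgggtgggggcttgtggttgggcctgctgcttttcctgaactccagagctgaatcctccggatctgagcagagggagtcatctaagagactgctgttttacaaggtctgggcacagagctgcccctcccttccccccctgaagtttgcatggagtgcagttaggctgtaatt
Apod: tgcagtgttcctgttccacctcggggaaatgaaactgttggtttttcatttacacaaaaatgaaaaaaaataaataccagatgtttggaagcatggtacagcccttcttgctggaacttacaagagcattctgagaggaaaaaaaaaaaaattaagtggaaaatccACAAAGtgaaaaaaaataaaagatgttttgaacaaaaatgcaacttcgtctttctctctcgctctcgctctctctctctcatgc
Searches on both strands for CATATG (an E-box), TTGGCA (an NFI half-site), ACAATG and ACAAAG (SOX-type) found only 1 match in these windows, ACAAAG in Apod, with its first base 84 bases before the start. Over the 17404 windows of tested genes, ACAAAG occurred in 14.4%, ACAATG in 8.53%, TTGGCA in 11.6% and CATATG in 2.50%. A window was at hand for 71.3% of the genes above both and 79.2% of those below both, too few for a comparison of motif shares, which is void. The Chst7 window had 61.2% G and C, that of Hapln1 54.4% and that of Apod 36.4%.

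Among the 15 leading genes above both, the weaker pairwise change was largest for Chst7, Hapln1, Lrtm2, Cyp4f15 and Grm5, in this order. Chst7 (chrX:20059560-20097521, GENCODE M21 on GRCm38) encodes a sulfotransferase that adds sulfate to chondroitin. It stood at 10.3, 8.06, 11.8 and 14.7 CPM in eGFP/tdTomato, at 0.502, 1.02, 1.58 and 1.32 CPM in eGFP, and at 0.713, 0.542, 1.08 and 0.590 CPM in tdTomato. The lowest eGFP/tdTomato library was 5.10 times the highest of the other 8. The change was 10.02-fold against eGFP (log2 3.32 ± 0.39 SE, adjusted p = 0.000189) and 15.3-fold against tdTomato (log2 3.94 ± 0.40, adjusted p = 1.59e-06). The single-reporter fractions did not pass the test against each other (adjusted p = 0.219).

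Hapln1 (chr13:89539796-89611652) encodes a link protein that fastens lecticans to hyaluronan in perineuronal matrix. It stood at 37.1, 23.7, 27.0 and 26.5 CPM in eGFP/tdTomato, at 2.72 to 3.79 CPM in eGFP and at 0.0446 to 0.775 CPM in tdTomato, so the 3 fractions did not overlap. It was 8.72-fold above eGFP (log2 3.12 ± 0.43, adjusted p = 0.000708) and 72.8-fold above tdTomato (log2 6.19 ± 0.52, adjusted p = 1.73e-07). Of the 24 tested link proteins, lecticans, tenascins and related matrix genes, Hapln1 alone was above both (0.392% of all genes tested). Its relative Hapln2, known from myelinated fibres, averaged 2.15 CPM in eGFP/tdTomato, 0.791 CPM in eGFP and 113 CPM in tdTomato. Of the 40 sulfotransferases and chondroitin synthesis genes, Chst7 and Chst10 were above both (0.392% of all genes tested). Chst10, which makes the HNK-1 epitope, rose 2.04-fold against eGFP and 9.35-fold against tdTomato, but lost a call when any of eGFP replicates 1 or 5 or eGFP/tdTomato replicates 1, 3 or 5 was left out.

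Lrtm2 (chr6:119315133-119330766) encodes a transmembrane protein with leucine-rich repeats. Its levels were 40.4, 57.8, 98.4 and 63.9 CPM in eGFP/tdTomato, 2.62, 9.004, 17.5 and 4.72 CPM in eGFP and 3.73 to 4.32 CPM in tdTomato, and replicate 3 was highest in both eGFP-positive fractions. The change was 7.66-fold against eGFP (adjusted p = 0.00169) and 16.4-fold against tdTomato (adjusted p = 6.84e-06). The whole gene lies inside Cacna2d4 on the other strand, and the sources do not say whether counting used strand. Cacna2d4 itself averaged 5.39, 6.03 and 3.57 CPM in eGFP/tdTomato, eGFP and tdTomato and was not called (adjusted p = 0.770). No other of the 42 leucine-rich repeat membrane genes was above both (0.392% of all genes tested).

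Metabotropic glutamate receptors couple glutamate to G proteins, and Grm5 is the Gq-coupled receptor through which young astrocytes raise calcium. Grm5 (chr7:87584168-88134907) stood at 115, 79.9, 151 and 107 CPM in eGFP/tdTomato, at 14.3, 23.9, 25.4 and 29.6 CPM in eGFP and at 21.3, 23.5, 17.3 and 13.3 CPM in tdTomato. The single-reporter fractions overlapped, and every eGFP/tdTomato library was at least 2.70 times the highest of them. Grm5 was 4.84-fold above eGFP (log2 2.28 ± 0.26, adjusted p = 0.000162) and 5.99-fold above tdTomato (log2 2.58 ± 0.26, adjusted p = 1.57e-06). Grm3, a Gi-coupled receptor, stood at 244 to 416 CPM in eGFP/tdTomato, 59.7 to 138 CPM in eGFP and 1.75 to 3.43 CPM in tdTomato, which put it 3.31-fold and 138-fold above them. Of the 11 tested metabotropic receptors and Homer scaffolds, these 2 were above both (0.392% of all genes tested). Grm7 was called higher and Grm4 lower without lying outside both, and the others were not called. Gabbr2, a subunit of the GABA-B receptor, joined them at 95.3 to 182.6 CPM against 23.2 to 63.1 CPM in eGFP and 5.39 to 9.13 CPM in tdTomato. None of the 24 ionotropic glutamate receptor genes lay outside both, with 4 called higher and 3 lower (9.22% and 5.19% of all genes tested).

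**Figure D2:**
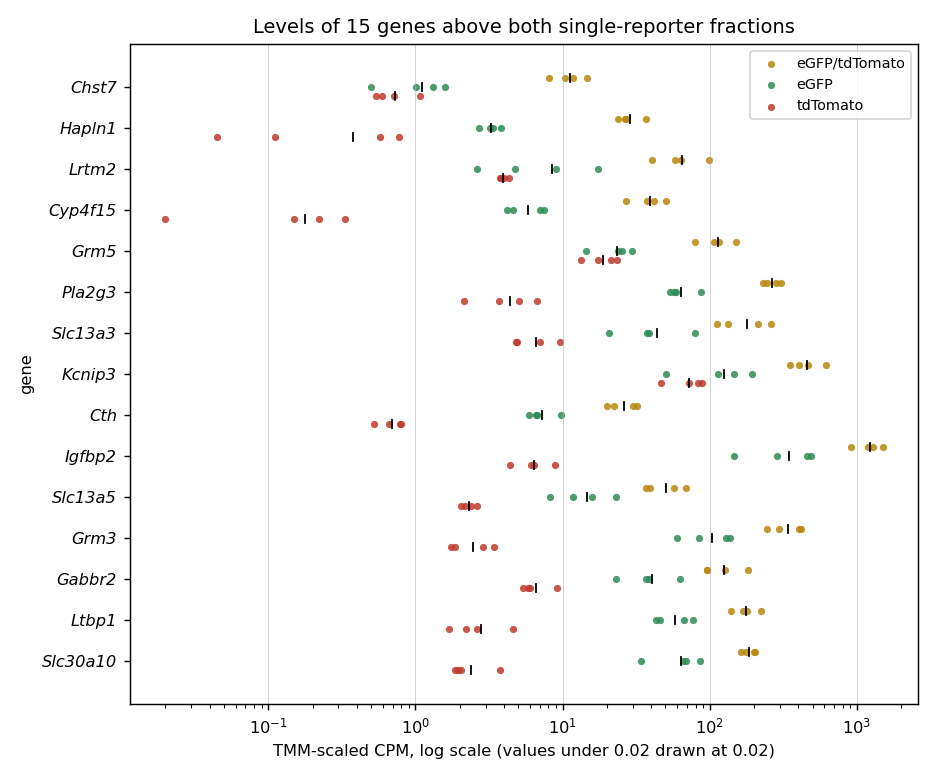
Levels in TMM-scaled CPM on a log axis of the 15 leading genes above both fractions, 1 point per library and a black tick at each group mean. The eGFP/tdTomato libraries lie to the right of all 8 others for each gene; for Chst7, Lrtm2, Grm5 and Kcnip3 the single-reporter fractions overlap, and for the other 11 they are apart.

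The other leading genes above both were enzymes, transporters and secreted proteins. Cyp4f15, a cytochrome P450 that hydroxylates fatty acids and eicosanoids, stood at 27.0 to 50.6 CPM in eGFP/tdTomato, 4.19 to 7.45 CPM in eGFP and 0 to 0.332 CPM in tdTomato, and it belongs to a family of close paralogs between which reads can be split. It was 6.73-fold above eGFP (adjusted p = 0.000460). Pla2g3, a secreted phospholipase A2, was at 231 to 307 CPM against 53.6 to 86.9 CPM in eGFP, a 4.15-fold difference (adjusted p = 0.000612). Part of Pla2g3 (45.0% of its length) overlaps Inpp5j on the other strand, which averaged 52.4, 47.2 and 3.83 CPM in eGFP/tdTomato, eGFP and tdTomato. Both sodium-coupled dicarboxylate and citrate transporters of the set rose: Slc13a3 was 4.07-fold and Slc13a5 3.44-fold above eGFP, and 27.2-fold and 22.0-fold above tdTomato.

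Cth, the enzyme that makes cysteine from cystathionine, was at 19.96 to 32.2 CPM in eGFP/tdTomato, 5.91 to 9.75 CPM in eGFP and 0.521 to 0.802 CPM in tdTomato. Igfbp2, a secreted binding protein for insulin-like growth factors, was at 1198, 915, 1494 and 1281 CPM in eGFP/tdTomato, at 147, 456, 488 and 287 CPM in eGFP and at 4.39 to 8.82 CPM in tdTomato. Its fold against eGFP was 3.55 (log2 1.83 ± 0.32, adjusted p = 0.00481). Kcnip3, a calcium-binding partner of potassium channels and a transcriptional repressor, was 3.65-fold above eGFP and 6.32-fold above tdTomato. It was the only 1 of the 24 oligodendrocyte progenitor genes above both (0.392% of all genes tested). Ltbp1, which holds latent TGF-beta in the matrix, was 3.04-fold above eGFP, and Slc30a10, a manganese exporter, 2.93-fold. Against tdTomato these 2 were 63.4-fold and 77.1-fold higher.

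Grey matter astrocyte genes were prominent above both. Of 16 such genes, 14 were called higher in the average contrast (9.22% of all genes tested) and 7 lay above both (0.392% of all genes tested), namely Grm3, Grm5, Gabbr2, Gpc5, Lgr6, Slco1c1 and Slc7a10, with a list median of 2.68 beside 0.26 for all genes tested. Against eGFP the list median was 1.32, beside -0.02 for all genes. The list holds 3 of the 30 genes above, and the lists were drawn up with results of these data known, so the count is a description. Gpc5, a glypican, kept its calls in all 12 fits: it stood at 113 to 167 CPM in eGFP/tdTomato against 36.2 to 59.2 CPM in eGFP and 6.36 to 9.36 CPM in tdTomato. Slco1c1, a thyroid hormone transporter, was 3.70-fold above eGFP but lost a call in 7 of the 12 fits, and Slc7a10, an alanine-serine-cysteine exchanger, was 2.56-fold above eGFP (adjusted p = 0.0481) and lost a call in 10. Without eGFP replicate 1, 5 of the 16 were above both, and with upper quartile factors 10. Of 30 pan-astrocyte genes, 28 were called higher and 5 were above both (9.22% and 0.392% of all genes tested), 3 without eGFP replicate 1 and 9 with upper quartile factors or unscaled library sizes. Slc7a10 and Gpc5 are on both lists and count in each. Among the pan-astrocyte genes above both, Acsbg1, an acyl-CoA synthetase, kept its calls in all 12 fits. It stood at 1492 to 2122 CPM in eGFP/tdTomato, 344 to 938 CPM in eGFP and 3.58 to 5.97 CPM in tdTomato. Of 15 white matter and fibrous astrocyte genes, 11 were called higher and 1, Igfbp2, was above both (9.22% and 0.392% of all genes tested). Nes was the 1 member called lower (5.19% of all genes tested). Of the 11 called higher, 4 had a mean between the other fractions (28.4% of all higher calls). The median of this list against eGFP was 0.05.

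Signalling lists gave a few members above both, several of them fragile. Fgf1, a fibroblast growth factor without a signal peptide, stood at 81.5 to 101.2 CPM in eGFP/tdTomato, 27.3 to 45.7 CPM in eGFP and 5.80 to 9.11 CPM in tdTomato and kept its calls in all 12 fits. Spry4, a feedback inhibitor of growth factor receptors, and Hbegf, a ligand of the EGF receptor, were 2.65-fold and 2.10-fold above eGFP and lost a call without eGFP/tdTomato replicate 3 or eGFP replicate 5. These 3 were the members above both among 31 FGF, PDGF and EGF genes (0.392% of all genes tested were above both), of which 16 were called higher and 4 lower (9.22% and 5.19% of all genes tested). In the Notch list of 22 genes, the target genes Hes5 (76.9 to 118 CPM in eGFP/tdTomato, 25.4 to 34.3 CPM in eGFP, 4.06 to 24.9 CPM in tdTomato) and Heyl were above both (0.392% of all genes tested). Hes5 lost a call without eGFP replicate 5 (weaker change 3.59-fold, adjusted p = 0.0122) and Heyl in 7 fits, among them that without eGFP replicate 1. In the Wnt list of 38 genes, the receptors Fzd9, Fzd10 and Lgr6 were above both (0.392% of all genes tested). Each lost a call without eGFP replicate 1, and with unscaled library sizes 1 gene of the list was above both. Ptn, a heparin-binding growth factor, was 2.43-fold above eGFP and 2.54-fold above tdTomato at 2605 to 3622 CPM, and kept its calls in all 12 fits.

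Below both, Apod stood furthest out. Apod (chr16:31296192-31314808) encodes a lipocalin that carries small lipids and is made by mature oligodendrocytes and by fibroblasts. It stood at 7.501, 8.57, 10.6 and 11.9 CPM in eGFP/tdTomato, at 242, 807, 75.4 and 277 CPM in eGFP and at 903, 511, 956 and 758 CPM in tdTomato. The eGFP/tdTomato libraries agreed closely while the eGFP libraries spread widely, and the lowest of the other 8 was 6.32 times the highest eGFP/tdTomato library. Apod was 36.3-fold below eGFP (log2 -5.18 ± 0.57, adjusted p = 0.000123) and 81.0-fold below tdTomato (log2 -6.34 ± 0.60, adjusted p = 6.52e-07). It was the 1 gene of 25 apolipoproteins and lipid carriers below both (0.262% of all genes tested). Of these 25, 10 were called higher and 6 lower in the average contrast (9.22% and 5.19% of all genes tested).

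Lpar1 (chr4:58435255-58553898) encodes a receptor for lysophosphatidic acid, and Enpp2 the secreted enzyme autotaxin that makes this lipid. Lpar1 stood at 18.3, 20.7, 21.7 and 15.8 CPM in eGFP/tdTomato, at 57.6, 138, 94.5 and 119 CPM in eGFP and at 536, 628, 633 and 469 CPM in tdTomato. It fell 5.35-fold against eGFP (log2 -2.42 ± 0.25, adjusted p = 7.56e-05) and 29.6-fold against tdTomato (log2 -4.89 ± 0.27, adjusted p = 2.82e-09). Enpp2 stood at 361, 397, 336 and 297 CPM in eGFP/tdTomato, at 769, 903, 623 and 676 CPM in eGFP and at 3595 to 5071 CPM in tdTomato, a fall of 2.14-fold and 12.03-fold that held in all 12 fits. Of 25 lysophospholipid receptors and enzymes, 4 were below both, none above both, 8 were called lower and 6 higher, with a list median of -0.31 beside 0.26 for all genes tested. Over all genes tested, 0.262% were below both, 5.19% were called lower and 9.22% higher. The other 2 below both, Plppr1 and Plppr3, belong to the phospholipid phosphatase-related family. Plppr1 lost a call without eGFP/tdTomato replicate 5 and Plppr3 in 6 fits, and 30.4% of Plppr3 overlaps Ptbp1. The receptors S1pr1 and Lpar4 went the other way in the average contrast, S1pr1 with means of 926, 643 and 7.31 CPM and Lpar4 with 68.5, 73.6 and 8.16 CPM in eGFP/tdTomato, eGFP and tdTomato, so the list did not move as 1 group.

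**Figure D3:**
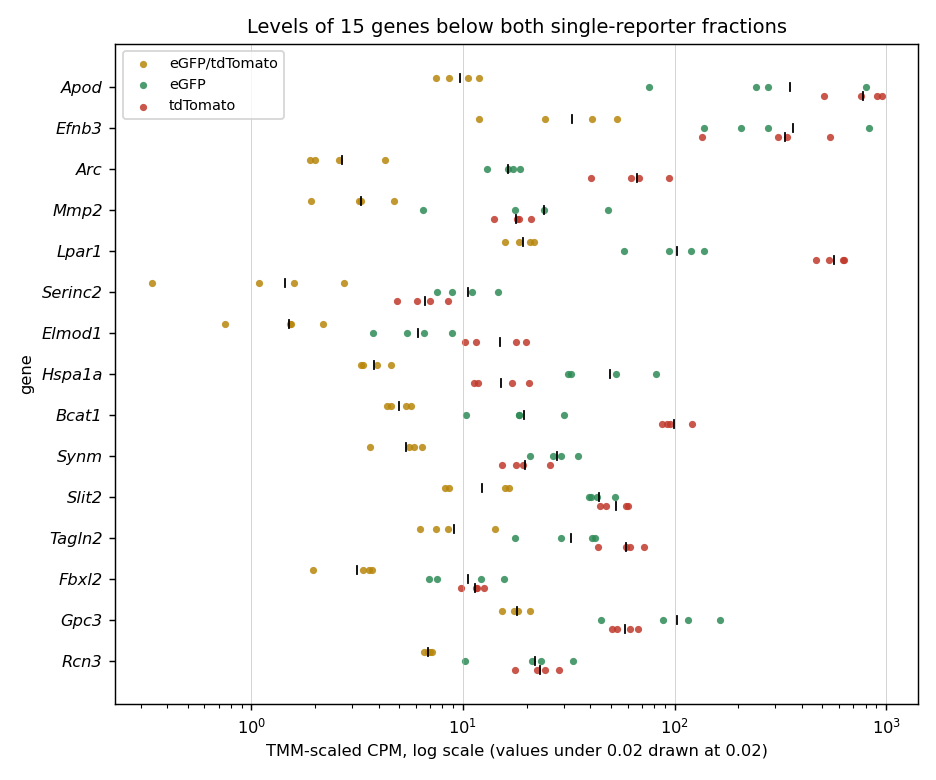
Levels in TMM-scaled CPM on a log axis of the 15 leading genes below both fractions, 1 point per library and a black tick at each group mean. The eGFP/tdTomato libraries lie to the left of all 8 others for each gene; the eGFP libraries of Apod span 75.4 to 807 CPM, and the single-reporter fractions overlap for Apod, Efnb3, Mmp2, Serinc2, Synm, Slit2, Fbxl2, Gpc3 and Rcn3.

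Guidance genes were also among the genes below both. Efnb3, a membrane-bound ephrin that repels growing axons and is known from ventral midline and myelinating cells, stood at 11.9, 24.3, 53.7 and 40.9 CPM in eGFP/tdTomato. It stood at 137, 206, 833 and 278 CPM in eGFP and at 309, 135, 543 and 340 CPM in tdTomato. Replicate 3 was the highest library in every fraction, and Efnb3 was 11.1-fold below eGFP (log2 -3.48 ± 0.60, adjusted p = 0.00411) and 10.2-fold below tdTomato. Slit2, a secreted ligand of Robo receptors, stood at 8.63, 16.6, 15.7 and 8.26 CPM in eGFP/tdTomato against 39.6 to 52.5 CPM in eGFP and 44.6 to 60.2 CPM in tdTomato, 3.57-fold and 4.29-fold below them. Of 40 ephrins, semaphorins, netrins, Slits and their receptors, these 2 were below both (0.262% of all genes tested), 17 were called higher and 13 lower (9.22% and 5.19% of all genes tested). Slit1 went the other way, with a mean of 54.0 CPM against 18.6 CPM in eGFP and 4.88 CPM in tdTomato, and missed the set above both by the overlap given above.

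Arc, an immediate early gene of synapses that is also transcribed in oligodendrocyte lineage cells, stood at 1.89 to 4.29 CPM in eGFP/tdTomato, 12.99 to 18.5 CPM in eGFP and 40.1 to 94.7 CPM in tdTomato. Hspa1a, a stress-induced chaperone, stood at 3.31 to 4.59 CPM in eGFP/tdTomato, 31.4 to 82.0 CPM in eGFP and 11.3 to 20.4 CPM in tdTomato, and reads cannot always be told apart from its near-identical copy Hspa1b. Hspa1a was the 1 member below both of the list of 24 immediate early and dissociation stress genes, which does not hold Arc. Of these 24, 17 were called higher in the average contrast, 12 of them with a mean between the other fractions. Over all genes tested, 0.262% were below both and 9.22% were called higher, 28.4% of these with a mean between. Bcat1, the cytosolic branched-chain aminotransferase, was 3.87-fold below eGFP and 19.8-fold below tdTomato. Serinc2, of the serine incorporator family, was at 0.339 to 2.75 CPM against 7.52 to 14.6 CPM in eGFP and 4.87 to 8.51 CPM in tdTomato. Elmod1 was 4.10-fold and Fbxl2, a substrate receptor of ubiquitin ligases, 3.35-fold below eGFP. The cytoskeletal genes Tagln2 and Synm were 3.56-fold and 5.18-fold below eGFP and 6.47-fold and 3.65-fold below tdTomato, and Synm lies wholly inside Ttc23 on the other strand, which averaged 21.4, 26.2 and 1.38 CPM in eGFP/tdTomato, eGFP and tdTomato.

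Single members of other pathways lay below both and kept their calls in all 12 fits. Bmp2, a bone morphogenetic protein, stood at 1.26, 1.12, 0.490 and 0.259 CPM in eGFP/tdTomato, at 5.46 to 6.40 CPM in eGFP and at 2.38 to 5.95 CPM in tdTomato. Cdon, a Hedgehog co-receptor, stood at 4.33 to 5.26 CPM in eGFP/tdTomato, 11.97 to 15.4 CPM in eGFP and 8.30 to 19.0 CPM in tdTomato. In their lists, 14 of 30 BMP and TGF-beta genes and 8 of 14 Hedgehog genes were called higher, and 3 and 2 lower. Over all genes tested, 9.22% were called higher and 5.19% lower. Against tdTomato 18 and 10 were called higher and 4 and 2 lower (16.8% and 12.4% of all genes tested). Against eGFP each list had 1 called higher and 1 lower (0.814% and 1.67% of all genes tested). Uchl1, a ubiquitin hydrolase abundant in neurons, stood at 9.79 to 13.8 CPM in eGFP/tdTomato, 19.0 to 38.2 CPM in eGFP and 53.8 to 77.5 CPM in tdTomato. It was the 1 of 21 neuronal genes below both, with 8 called lower (0.262% and 5.19% of all genes tested).

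Several leading genes below both, among them Mmp2, a secreted metalloproteinase, Gpc3, a glypican, and Rcn3, a calcium-binding protein of the secretory pathway, are also known from fibroblasts. Mmp2 stood at 4.74, 3.31, 1.92 and 3.22 CPM in eGFP/tdTomato, at 17.7, 48.7, 6.51 and 24.2 CPM in eGFP and at 14.1 to 21.0 CPM in tdTomato. Gpc3 stood at 15.3 to 20.7 CPM in eGFP/tdTomato, at 87.9, 164, 44.9 and 116 CPM in eGFP and at 50.4 to 67.3 CPM in tdTomato. Rcn3 stood at 6.55 to 7.14 CPM in eGFP/tdTomato, at 21.2, 33.1, 10.2 and 23.3 CPM in eGFP and at 17.6 to 28.3 CPM in tdTomato. The 14 tested mural and fibroblast markers summed to 904, 2146, 808 and 1313 CPM in eGFP, to 386 to 591 CPM in eGFP/tdTomato and to 156 to 450 CPM in tdTomato. None of the 14 was at 0 in any fraction, and 5 were called lower in eGFP/tdTomato than in eGFP (1.67% of all genes tested). The defining fibroblast gene Dcn stood at 216, 673, 67.3 and 277 CPM in eGFP, at 2.71 to 5.98 CPM in eGFP/tdTomato and at 0.558 to 2.69 CPM in tdTomato. In the eGFP libraries the marker sum, Dcn, Apod, Mmp2, Gpc3 and Rcn3 shared 1 order, replicate 3 lowest, then 1, 5 and 2. The part of fibroblast RNA in the eGFP values was not tested. In tdTomato Dcn averaged 1.56 CPM. There the lowest library of Apod, Mmp2, Gpc3 and Rcn3 lay above the highest eGFP/tdTomato library, which the definition of below both requires.

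**Figure D4:**
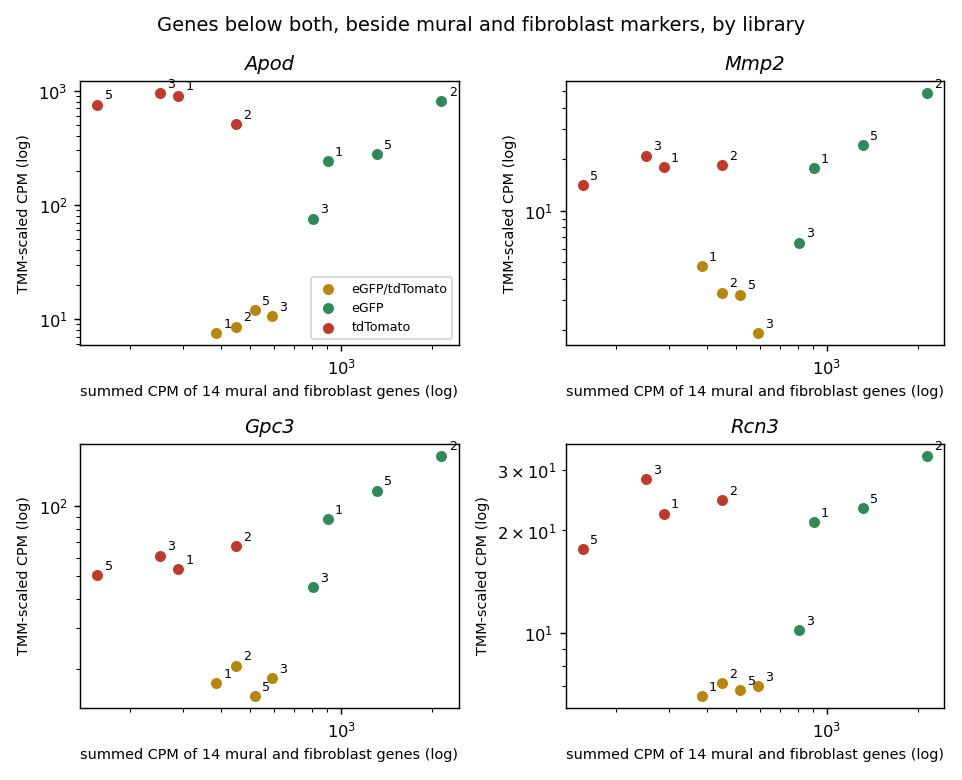
Levels of Apod, Mmp2, Gpc3 and Rcn3 in each library (vertical, TMM-scaled CPM, log axis) against the summed CPM of 14 mural and fibroblast markers (horizontal, log axis), with points numbered by replicate. The green eGFP points climb with the marker sum from replicate 3 to replicate 2, and the red tdTomato points lie at marker sums of 156 to 450 CPM.

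Summed markers of microglia and of ependyma were higher in every eGFP library than in any eGFP/tdTomato library. The 18 microglia and macrophage genes summed to 160 to 1285 CPM in eGFP, 94.3 to 113 CPM in eGFP/tdTomato and 41.4 to 73.0 CPM in tdTomato. Of them, 7 were called lower in the average contrast (5.19% of all genes tested), none of them below both. The 15 ependymal genes summed to 352 to 654 CPM in eGFP, 44.7 to 61.6 CPM in eGFP/tdTomato and 15.9 to 23.3 CPM in tdTomato. No ependymal list gene was below both, and 13 of the 15 were called lower against eGFP (1.67% of all genes tested). Against tdTomato 12 of the 15 were called higher and 0 lower (16.8% and 12.4% of all genes tested). None of the members of either list was at 0 in all libraries of a fraction. Kif6, a kinesin on no list, was below both. It stood at 2.34 to 4.30 CPM in eGFP/tdTomato, 9.20 to 20.3 CPM in eGFP and 6.89 to 12.01 CPM in tdTomato. Dnaic2, Rnf32, Cep126 and Tppp3, also on no list, were below both too. In eGFP/tdTomato, eGFP and tdTomato, Dnaic2 averaged 5.73, 15.6 and 11.4 CPM and Rnf32 6.99, 16.5 and 25.7 CPM. Cep126 averaged 2.84, 9.57 and 6.94 CPM and Tppp3 19.05, 64.1 and 104 CPM. Kif6, Rnf32 and Cep126 kept their calls in all 12 fits, Dnaic2 in 11 and Tppp3 in 8. These genes are named after their values were seen. Unlike the ependymal list, all were called lower against tdTomato, which the definition of below both requires. The part of ependymal RNA in their eGFP values was not tested.

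Oligodendrocyte genes showed how often a call against the average came with a mean between the fractions. Of 31 myelinating oligodendrocyte genes, 27 were called lower in the average contrast, but 21 of these 27 had an eGFP/tdTomato mean between the others, and 3 (Apod, Enpp2 and Lpar1) were below both. Over all genes tested, 5.19% were called lower, 44.9% of these with a mean between, and 0.262% were below both. The list's median against eGFP was 1.39, that is, toward higher values in eGFP/tdTomato. Car2, a carbonic anhydrase of oligodendrocytes and young astrocytes, was the 1 member above both (0.392% of all genes tested). Its levels were 774 to 1162 CPM against 287 to 575 CPM in eGFP and 304 to 429 CPM in tdTomato. Car2 lost a call in 5 of the 12 fits. Of 19 committed precursor and new oligodendrocyte genes, 16 were called lower (5.19% of all genes tested) and 15 of these lay between (44.9% of all lower calls). The 5 genes with the largest lower average change among those between were Cbr2, Tmem182, Cldn14, Tspan2 and Opalin. Tspan2, a tetraspanin of oligodendrocytes, averaged 33.3 CPM in eGFP/tdTomato, 25.3 CPM in eGFP and 1814 CPM in tdTomato, with a log2 average change of -2.68 and no call against eGFP (adjusted p = 0.745). Cbr2, a carbonyl reductase, stood at 3.46, 14.6, 7.72 and 80.5 CPM in eGFP, at 0 to 0.593 CPM in eGFP/tdTomato and at 0.0744 to 0.331 CPM in tdTomato.

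The same held on the higher side. Pdgfd, Cidea, Ntsr2, Ccdc190 and Cpne6 had the largest higher average changes among genes with a mean between. Ntsr2, a neurotensin receptor of astrocytes, stood at 861 to 1315 CPM in eGFP/tdTomato, 807 to 1689 CPM in eGFP and 4.80 to 8.02 CPM in tdTomato. Its log2 average change was 3.63 ± 0.20 although eGFP/tdTomato and eGFP overlapped fully. Pdgfd, a platelet-derived growth factor, stood at 110 to 143 CPM in eGFP/tdTomato, 103 to 179 CPM in eGFP and 0.0446 to 1.29 CPM in tdTomato. Gfap, the intermediate filament of fibrous astrocytes, also had a mean between, at 13880, 18040 and 90.9 CPM in eGFP/tdTomato, eGFP and tdTomato.

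**Figure D5:**
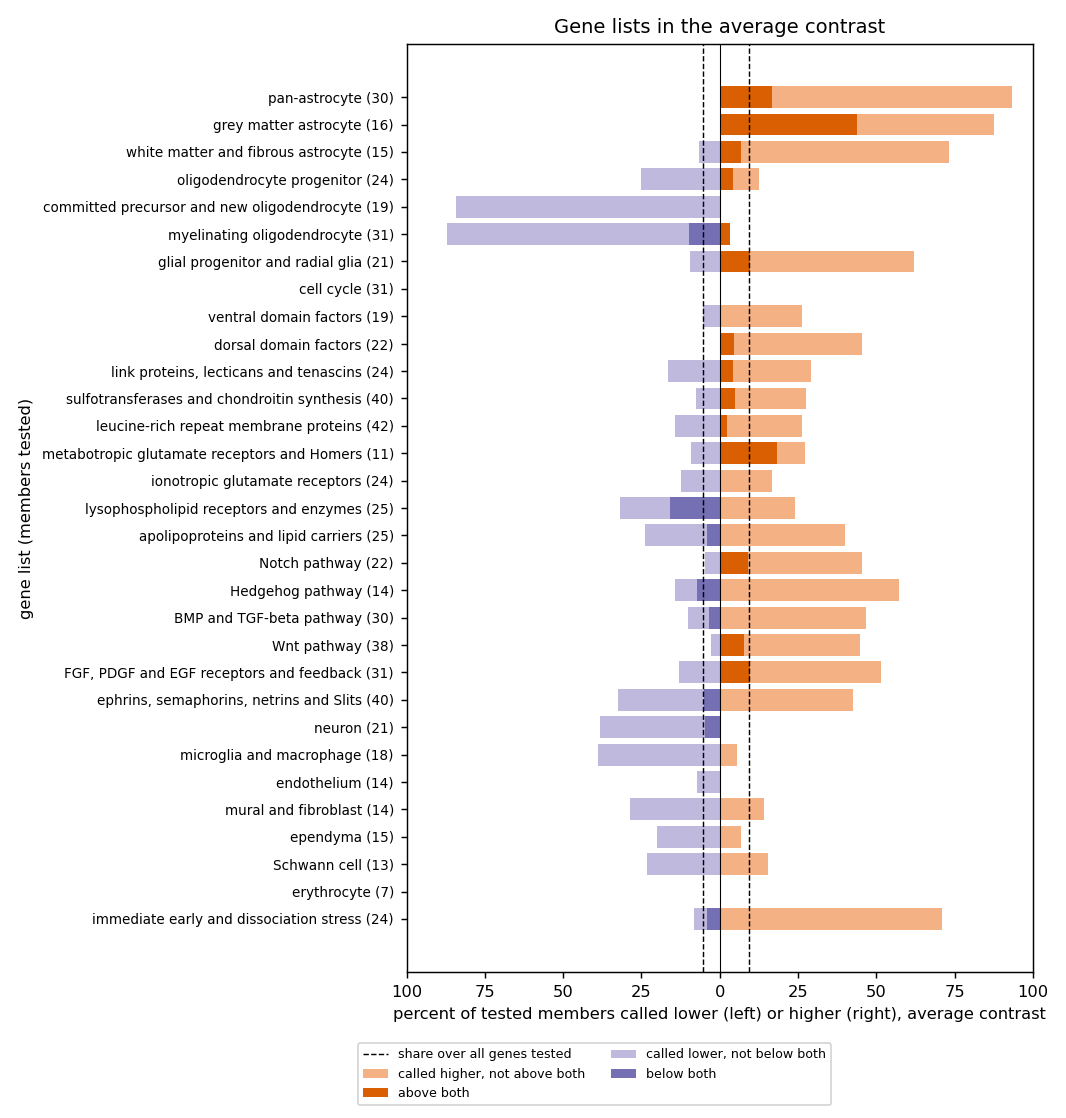
Percent of the tested members of each of 31 gene lists called higher (right) or lower (left) in the average contrast, with the part above or below both fractions in the darker colour. Dashed lines mark the shares over all genes tested, 9.22% higher and 5.19% lower; the grey matter astrocyte list has 7 of 16 members above both, while the myelinating list has 27 of 31 called lower and 3 below both.

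The lists for patterning and division added little outside both. Of 22 dorsal domain factors, 10 were called higher (9.22% of all genes tested). Against tdTomato 14 were called higher and 1 lower (16.8% and 12.4% of all genes tested). Against eGFP, however, 1 was called higher and 4 lower (0.814% and 1.67% of all genes tested). The list summed to 209 to 285 CPM in eGFP/tdTomato, under every eGFP library (332 to 781 CPM), and to 25.4 to 35.5 CPM in tdTomato. Irx2, an Iroquois homeobox factor, was the 1 member above both (0.392% of all genes tested). It stood at 9.49 to 17.5 CPM against 4.20 to 6.92 CPM in eGFP and 3.19 to 3.74 CPM in tdTomato. Irx2 lost a call when eGFP replicate 2 or eGFP/tdTomato replicate 3 or 5 was left out. Of 19 ventral domain factors, 5 were called higher and 1 lower (9.22% and 5.19% of all genes tested), and none lay outside both. Of 31 cell cycle genes, none was called in the average contrast by edgeR with TMM factors, 6 had an unadjusted p under 0.05, all higher, and 1 was called higher by DESeq2 and 2 by limma-voom. The summed level of the cell cycle genes was 677 to 830 CPM in eGFP/tdTomato, 387 to 525 CPM in eGFP and 552 to 1118 CPM in tdTomato, so the double-reporter libraries lay above every eGFP library and inside the range of tdTomato.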

How the data were processed

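RNA of 12 sorted fractions (3 groups of 4 libraries) was sequenced on a BGISEQ-500, per the labels. The deposited values are counts of reads per gene, made with STAR and HTSeq on GRCm38 (mm10), per the submitters' processing notes; versions, annotation and strand setting are not given in the sources used here. The 5 lines naming no gene were left out of library sizes, which kept 28.5 to 64.0% of a library's reads. Of all reads, 21.2 to 57.1% lay outside genes, 1.79 to 4.60% were ambiguous and 10.1 to 15.2% did not align uniquely. Symbols came from GENCODE M21 for 99.8% of 53465 genes. Mitochondrial genes held 0 counts, and no libraries were identical.

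Counts were fitted in edgeR 4.0.16 (R 4.3.3, TMM, filterByExpr, robust quasi-likelihood) in 1 model of all 12 libraries; p-values were Benjamini-Hochberg adjusted over the 29361 genes tested, per contrast. Fold changes are the fitted values. DESeq2 1.42.0, limma-voom 3.58.1, other scalings, filters, a replicate block, a covariate for reads outside genes and left-out libraries were alternatives. Named genes were the reporters, 6 genes given with the contrast, up to 15 named protein-coding genes in each direction with at least 5 CPM that kept their calls in the 12 fits leaving out 1 library (clone-like names excluded), ranked by the weaker pairwise change, 5 genes in each direction with a mean between the fractions, and up to 4 genes per list that lay outside both. The contrast, genes and 31 lists were chosen with earlier results of these data known.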

Additional observations from a re-analysis of the deposited data

Results flagged for a closer look

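In 219 groups of 4 libraries examined (named genes and list sums), 10 had 1 library whose gap to the nearest other, divided by the range, exceeded Dixon's 95% critical value; chance gives about 1 in 20. Among genes outside both fractions, Pla2g3 was at 86.9 CPM in eGFP replicate 3 against 53.6 to 58.5 in the other eGFP libraries, under every eGFP/tdTomato library. Gabbr2 was at 9.13 CPM in tdTomato replicate 1 against 5.39 to 6.02, and Slc30a10 at 3.73 CPM in tdTomato replicate 2 against 1.87 to 2.03, both far under the other fractions. Cbr2 was at 80.5 CPM in eGFP replicate 5 against 3.46 to 14.6. Among list sums, the pan-astrocyte genes stood at 79110 CPM in eGFP/tdTomato replicate 3 against 65730 to 67600. In tdTomato replicate 5, sums were low for glial progenitor genes (2450 against 3225 to 3347 CPM), sulfotransferases (1377 against 1830 to 1845 CPM) and the FGF, PDGF and EGF list (1093 against 1491 to 1534 CPM). The Schwann cell sum was 285 CPM in eGFP replicate 1 against 417 to 443, and the erythrocyte sum 133 CPM in tdTomato replicate 1 against 30.6 to 39.4.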

How the results depend on the processing

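Of 3186 results of named genes compared over the alternatives, 2986 stayed the same, 9 were stronger and 191 weaker. The larger share of the calls did turn direction. Higher genes made up 64.0% of them, but 49.0% over genes with at least 1 CPM in 4 libraries and 45.0% without eGFP replicate 1. Over the 30 leading genes outside both, none lost a call under another tool, scaling, filter, the block or the covariate; against a log2 fold change of 1, 12 lost one, and without the 3 libraries of number 2 or of number 5, 6 and 10 did. Against a log2 fold change of 1, the average contrast kept 1301 calls (993 higher, 308 lower), with 8 genes above and 14 below both. The lower calls numbered 2795 with DESeq2, 2424 with upper quartile factors, 2715 over genes with 1 CPM in 4 libraries and 2333 over protein-coding genes. Genes above both numbered 215 with DESeq2, 196 with limma-voom, 202 with upper quartile factors, 174 over protein-coding genes and 198 with the covariate; those below both numbered 139 with DESeq2, 122 with upper quartile factors, 161 with library sizes only, 127 over genes with 1 CPM in 4 libraries and 126 over protein-coding genes. The cause was not tested. Leaving out 1 library gave 3295 to 5185 calls (1677 to 2874 higher, 1068 to 2850 lower), 30 to 245 genes above and 49 to 141 below both; leaving out the 3 libraries of a number gave 2973 to 3563 calls (1816 to 2353 higher, 933 to 1630 lower), 19 to 66 above and 23 to 74 below. With the replicate block there were 194 genes above and 97 below both. The numbers share no stated animal or day, and for that reason same-numbered libraries were not taken as pairs. Their deviations from the group means did go together (r over 0.1) in 8 of 12 pairs. The median r was 0.19 (range -0.23 to 0.60), beside -0.10 for pairs with different numbers. Deviations were taken from group means, so pairs with different numbers are not an independent baseline. The pairs of number 3 had r of 0.49, 0.59 and 0.60, and pairs with different numbers reached 0.57. Whether same-numbered libraries share a source was not tested. The shallowest library, eGFP replicate 1, held 12564767 counts in genes, which limits the precision of its low levels most.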

Other observations

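The genes below were picked from those outside both after their values were seen, belong to no list drawn up here, and stand for no group. Gpt, an alanine aminotransferase, stood at 39.2 to 66.1 CPM in eGFP/tdTomato, 16.4 to 33.7 CPM in eGFP and 2.98 to 5.02 CPM in tdTomato. Cdo1, which oxidises cysteine, stood at 54.2 to 66.5, 25.3 to 36.7 and 15.6 to 38.4 CPM in the same order. Bckdhb, a subunit of the branched-chain ketoacid dehydrogenase, and Ppm1k, the phosphatase that activates it, averaged 75.1 and 104 CPM against 41.1 and 57.6 CPM in eGFP and lower means still in tdTomato, whereas Bcat1, described above, was below both. Dio2, the deiodinase that activates thyroid hormone, stood at 20.6 to 32.1 CPM in eGFP/tdTomato, 9.73 to 14.2 CPM in eGFP and 1.60 to 2.51 CPM in tdTomato. Trhr, the receptor of thyrotropin-releasing hormone, stood at 15.7 to 28.1, 3.74 to 8.50 and 0 to 0.553 CPM. Of the 12 fits leaving out 1 library, Ppm1k kept its calls in 9, Dio2 and Bckdhb in 8 and Gpt, Cdo1 and Trhr in 6. Map1b, a microtubule protein of growing neurites and young oligodendrocytes, was below both at 136 to 162 CPM against 306 to 525 CPM in eGFP and 2385 to 4831 CPM in tdTomato, and kept its calls in all 12.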
